A study of Mus musculus with 36 samples.

Results

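A set of 10 genes that mark T cells and natural killer (NK) cells were followed in whole mouse lung, chosen by gene symbol through the array's annotation. All 10 of 10 listed genes were measured, each by 1 probe set, and all 10 passed the filter on dim genes, out of 14953 genes tested and 19938 genes with a single symbol. The data are 36 arrays of total RNA from lungs of A/J and C3H mice, deposited as intensities and read here on a normalized log2(intensity + 16) scale. In each strain, untreated lungs were taken at weeks 0, 3, 6, 9 and 12. Lungs of mice injected with NNK, a nitrosamine carcinogen of tobacco, at 100 mg/kg weekly over 4 weeks were taken at weeks 3, 6, 9 and 12 after exposure and before mature tumours had formed. With 2 arrays per combination of strain, treatment and week (18 groups), a strain has 10 untreated and 8 NNK-treated arrays. The labels used here give no age, sex or C3H substrain and leave unstated whether paired arrays are different mice; the p-values then measure the spread between arrays, and that spread may be technical.

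T cells recognise antigen through a receptor whose signal passes through the CD3 chains, with CD4 or CD8 as coreceptor, to the kinase ZAP-70. NK cells and CD8 T cells kill target cells by releasing granules that hold perforin, which opens the target's membrane, and granzymes, proteases that enter through it. NK cells are abundant in the lung and read their targets through activating receptors such as NKp46 and through receptors built on CD94, which is also found on some T cells. The 10 genes fall into 4 of T cell identity and signalling (Cd3e, Cd4, Cd8a and Zap70) and 6 of cytotoxic granules and NK receptors (Nkg7, Gzma, Gzmb, Prf1, Klrd1 and Ncr1), called cytotoxic genes below.

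The largest differences lay between the strains. Gzma, encoding granzyme A, was 2.78-fold lower in untreated A/J than in untreated C3H lungs, and Prf1, Ncr1, Cd4 and Nkg7 were lower by smaller amounts, while Cd8a was 1.35-fold higher in A/J. NNK-treated lungs showed the same order for Gzma, Prf1, Ncr1, Cd4 and Cd8a. NNK itself called 1 of the 10 genes in A/J lungs, Zap70 by a small margin, where 10% of all genes tested were called, and 0 in C3H lungs, where 0.0803% were. Whole lung was measured, so fewer cells of a type and less RNA per cell cannot be told apart. Each gene was read by 1 probe set, and whether the strains differ in sequence under it was not tested.

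**Figure D1:**
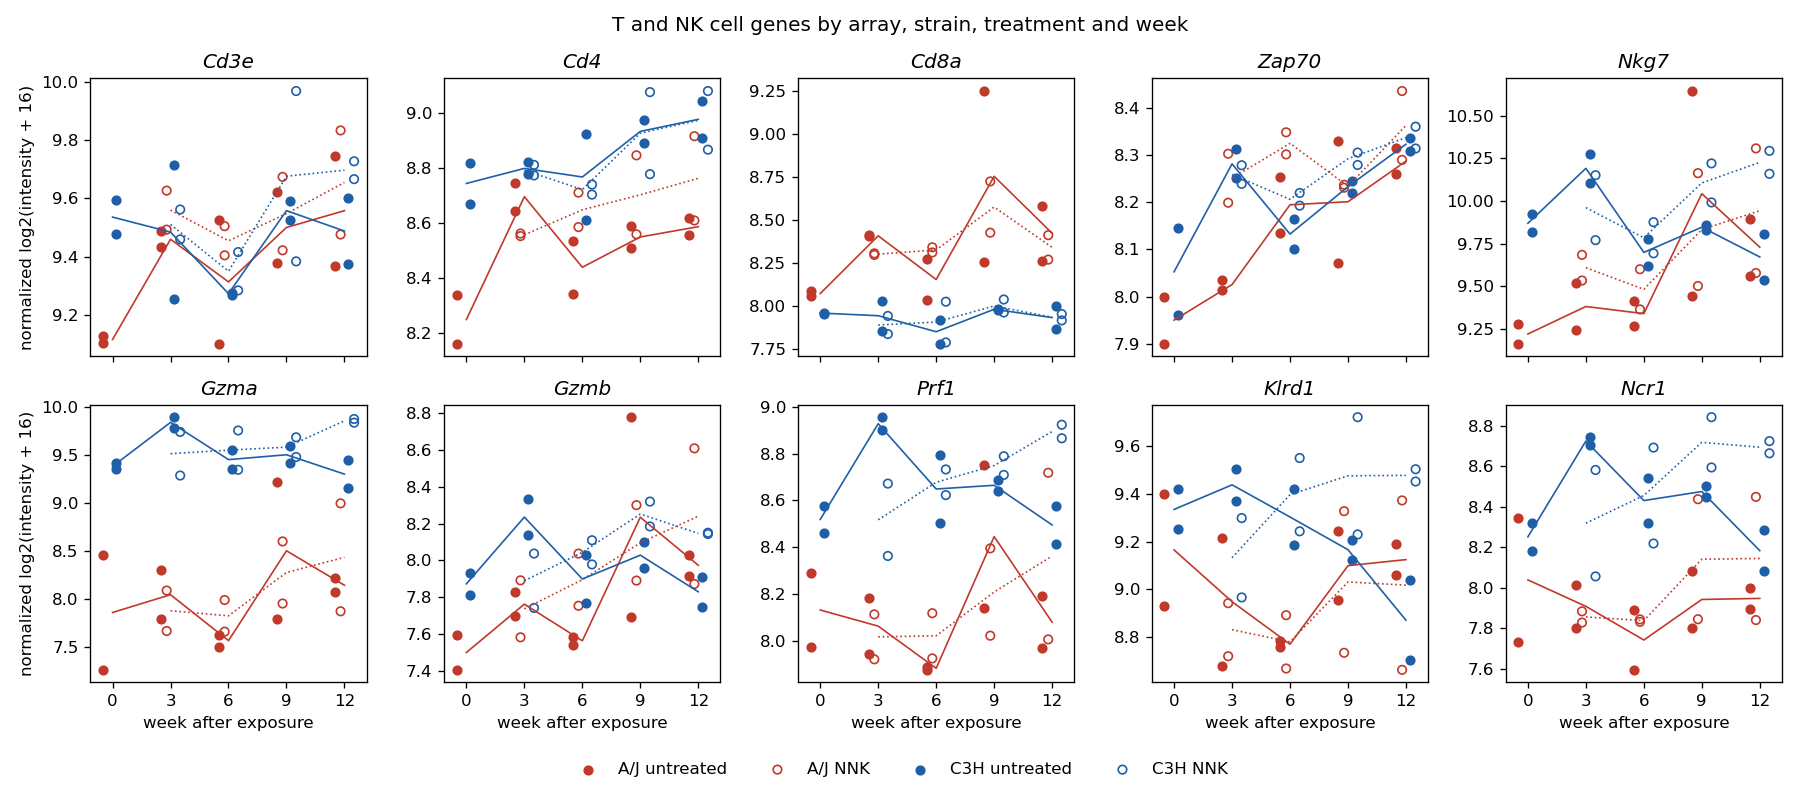
Level of each of the 10 genes, as normalized log2(intensity + 16), in each of the 36 arrays against the week, with red for A/J, blue for C3H, filled points for untreated, open points for NNK-treated arrays, and lines through the means of the 2 arrays of a group. The blue points of Gzma lie between 9.15 and 9.90 and those of A/J between 7.26 and 9.22. For Cd8a every red point lies above every blue one of the same treatment.

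Several cytotoxic genes were lower in A/J than in C3H, while Cd8a was higher. The stretch of 250 bases before the gene start is therefore printed for the 4 cytotoxic genes called lower in untreated A/J lungs and for Cd8a. The sequences come from RefSeq on build GRCm38.p6 and are written 5′ to 3′ along the gene's strand. Capitals mark the RUNX core TGTGGT, the T-box core AGGTGTG and the ETS core AGGAAG, searched on both strands; these are DNA letters bound by families of transcription factors active in lymphocytes. A window of 250 bases was found for 8 of the 10 genes, and Cd4 and Klrd1 had none in the table used.
Gzma, chr13:113100982-113101231, minus strand: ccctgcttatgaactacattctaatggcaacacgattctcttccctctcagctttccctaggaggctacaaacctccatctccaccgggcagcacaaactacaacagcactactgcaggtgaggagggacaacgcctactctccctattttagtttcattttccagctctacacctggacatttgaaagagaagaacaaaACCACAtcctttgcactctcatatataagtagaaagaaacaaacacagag
Prf1, chr10:61297586-61297835, plus strand: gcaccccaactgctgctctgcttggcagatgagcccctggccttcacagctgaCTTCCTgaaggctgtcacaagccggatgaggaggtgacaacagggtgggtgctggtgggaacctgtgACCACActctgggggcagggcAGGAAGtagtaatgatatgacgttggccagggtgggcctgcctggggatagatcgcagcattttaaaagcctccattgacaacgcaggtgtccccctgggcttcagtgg
Ncr1, chr7:4337465-4337714, plus strand: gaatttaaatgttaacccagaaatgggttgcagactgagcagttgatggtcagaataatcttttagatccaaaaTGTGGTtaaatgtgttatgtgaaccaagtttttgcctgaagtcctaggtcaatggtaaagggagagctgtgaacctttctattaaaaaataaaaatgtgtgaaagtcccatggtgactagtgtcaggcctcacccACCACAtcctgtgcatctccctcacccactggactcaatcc
Nkg7, chr7:43436888-43437137, plus strand: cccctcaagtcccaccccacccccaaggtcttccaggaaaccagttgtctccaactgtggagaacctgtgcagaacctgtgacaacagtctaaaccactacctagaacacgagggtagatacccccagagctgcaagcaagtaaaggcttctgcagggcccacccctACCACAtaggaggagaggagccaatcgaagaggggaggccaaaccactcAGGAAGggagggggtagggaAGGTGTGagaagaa
Cd8a, chr6:71373177-71373426, plus strand: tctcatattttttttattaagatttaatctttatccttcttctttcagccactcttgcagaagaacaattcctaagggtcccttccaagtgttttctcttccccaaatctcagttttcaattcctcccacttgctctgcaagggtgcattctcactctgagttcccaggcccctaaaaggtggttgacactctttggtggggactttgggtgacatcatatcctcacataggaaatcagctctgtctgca
The RUNX core occurred in 14% of the 32841 promoter windows of this length in the table. It was found 1 time each in the windows of Gzma, Prf1 and Nkg7 and 2 times each in those of Ncr1 and Gzmb, and it was not found in those of Cd3e, Cd8a and Zap70. In Gzma the match starts 50 bases before the gene start and in Prf1 130 bases before it. The T-box core, present in 5.1% of windows, was found only in Nkg7 among the 8 windows, and the ETS core, present in 29.5%, in Cd3e, Nkg7, Prf1 and Zap70. A match describes the letters and not a bound site, and its part in the levels was not tested. The RefSeq mouse sequence is that of C57BL/6J, not of A/J or C3H.

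Gzma showed the widest strain difference of the 10 genes. In untreated A/J lungs its level ran from 7.26 to 9.22 over 10 arrays with a median of 7.93, and in untreated C3H lungs from 9.15 to 9.90 with a median of 9.43. Of the 10 A/J arrays, 9 lay below every C3H array, and the exception was the second A/J array of week 9. The mean difference over the 5 weeks, A/J minus C3H, was -1.48 ± 0.17 (SE; adjusted p = 1.35e-07 from the limma fit across all genes). Among NNK-treated lungs A/J ran from 7.66 to 9.00 with a median of 7.97 and C3H from 9.29 to 9.88 with a median of 9.71. All 8 A/J arrays lay below all 8 C3H arrays, and the difference over 4 weeks was -1.53 ± 0.19 (adjusted p = 5.5e-07). By week the untreated difference was -1.53 at week 0, -1.80 at week 3, -1.89 at week 6, -1.0 at week 9 and -1.16 at week 12. It was thus already present at week 0 and narrowest at week 9, the week of the A/J array that stood apart.

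Across the whole array 56.1% of the genes tested differed between the untreated strains, 36.3% lower and 19.8% higher in A/J, so a call between strains is common. Of the 10 genes, 6 were called, 5 lower and 1 higher. Their median difference was -0.26, against -0.04 for all genes tested. In NNK-treated lungs 53.3% of genes were called, 29.8% lower and 23.5% higher in A/J, and again 6 of the 10 genes, 5 lower and 1 higher. Arrays of the strains did not overlap in 10.3% of genes when untreated (2.55% with A/J above, 7.78% with A/J below) and in 15.7% when NNK-treated (7.10% above, 8.61% below). Among the 10 genes this held for Cd8a in untreated lungs and for Cd8a and Gzma in NNK-treated lungs.

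Prf1, which encodes perforin, went with Gzma. Its level lay between 7.88 and 8.75 in untreated A/J arrays (median 8.06) and between 8.41 and 8.96 in untreated C3H arrays (median 8.61). In the untreated set 9 of 10 A/J arrays were below every C3H array, and again the second A/J array of week 9 was the one that overlapped. The strain difference was -0.53 ± 0.08 (adjusted p = 1.37e-05 in limma) untreated and -0.56 ± 0.09 (adjusted p = 3.6e-05) after NNK. In NNK-treated A/J arrays Prf1 lay between 7.92 and 8.72 (median 8.07), and in C3H between 8.36 and 8.92 (median 8.72), with 6 of 8 A/J arrays below all C3H arrays.

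Nkg7 encodes a membrane protein of cytotoxic granules. Its level was 9.16 to 10.65 in untreated A/J arrays (median 9.43) and 9.54 to 10.28 in untreated C3H arrays (median 9.82). Most A/J arrays, 7 of 10, were below all C3H arrays, but the second A/J array of week 9 was the highest of all 36. The untreated difference was -0.31 ± 0.12 (adjusted p = 0.0289 in limma). Leaving out 1 array at a time ended this call in 8 of 36 fits, with differences in those fits from -0.19 to -0.30 and adjusted p from 0.0504 to 0.0887. The arrays whose removal ended the call were the second untreated A/J array of week 3, the first of weeks 6, 9 and 12, and in untreated C3H the second array of weeks 0 and 12 and the first of weeks 3 and 6. After NNK the difference was -0.30 ± 0.13 and did not pass (adjusted p = 0.0591), with A/J between 9.36 and 10.31 (median 9.59) and C3H between 9.69 and 10.29 (median 10.07). It passed, at -0.30 to -0.39, without either untreated A/J array of week 9, the first NNK-treated A/J array of week 9 or of week 12, or the first NNK-treated C3H array of week 3.

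Gzmb, which encodes granzyme B, did not pass between the strains. It ran from 7.40 to 8.78 in untreated A/J (median 7.69) and from 7.75 to 8.33 in untreated C3H (median 7.94), so the C3H range lay within that of A/J. Of the 10 untreated A/J arrays, 6 were below every C3H array and 1 was above every C3H array. The untreated difference was -0.17 ± 0.11 (adjusted p = 0.187 in limma), with an interval from -0.38 to 0.05, and the NNK-treated one was -0.09 ± 0.12 (adjusted p = 0.535). In NNK-treated arrays the levels were 7.58 to 8.61 in A/J (median 7.89) and 7.74 to 8.32 in C3H (median 8.13). Without the second untreated A/J array of week 9 the untreated difference was -0.27. That array was the highest of A/J in Gzmb, so leaving it out lowers A/J by construction.

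The NK receptor gene Ncr1, encoding NKp46, was lower in A/J in both treatments. Untreated arrays held 7.59 to 8.35 in A/J (median 7.89) and 8.08 to 8.74 in C3H (median 8.38), and 8 of 10 A/J arrays were below all C3H arrays. The difference was -0.50 ± 0.10 (adjusted p = 0.00013 in limma) untreated and -0.55 ± 0.11 (adjusted p = 0.000165) after NNK. NNK-treated arrays held 7.83 to 8.45 in A/J (median 7.84) and 8.06 to 8.84 in C3H (median 8.63).

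Klrd1, encoding CD94, differed less. Untreated levels were 8.68 to 9.40 in A/J (median 9.01) and 8.70 to 9.50 in C3H (median 9.23), and 1 of 10 A/J arrays was below all C3H arrays. The untreated difference was -0.20 ± 0.10 and did not pass (adjusted p = 0.096 in limma), while the NNK-treated difference was -0.46 ± 0.11 and did (adjusted p = 0.00176). NNK-treated levels were 8.66 to 9.37 in A/J (median 8.81) and 8.97 to 9.72 in C3H (median 9.38), with 6 of 8 A/J arrays below all C3H arrays. The test of whether NNK changed the gene differently in the strains gave -0.25 ± 0.16 (adjusted p = 0.427), so the larger difference after NNK was not itself shown. Without the first untreated A/J array of week 0 or of week 3 the untreated difference was -0.25 and -0.26. These arrays, at 9.40 and 9.22, were the higher of their pairs, so leaving either out lowers A/J by construction.

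Cd8a, the alpha chain of the CD8 coreceptor, ran the other way. Untreated A/J arrays held 8.03 to 9.25 (median 8.27) and untreated C3H arrays 7.78 to 8.03 (median 7.96). The lowest A/J array, the first of week 6, was 8.034 and the highest C3H array, the second of week 3, 8.032, so the ranges met without overlapping. The difference was 0.43 ± 0.08 (adjusted p = 9.8e-05 in limma) untreated. NNK-treated arrays held 8.27 to 8.73 in A/J (median 8.33) and 7.79 to 8.04 in C3H (median 7.95), a difference of 0.45 ± 0.09 (adjusted p = 0.000214). At week 0 the untreated difference was 0.11, and at weeks 3, 6, 9 and 12 it was 0.46, 0.30, 0.77 and 0.49. Week 9 held the A/J array at 9.25, and its partner array was at 8.26. Leaving out the array at 9.25 lowered the untreated difference to 0.33, still past the threshold.

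Cd4, the other coreceptor, was lower in A/J. Untreated levels were 8.16 to 8.75 in A/J (median 8.55) and 8.61 to 9.04 in C3H (median 8.85), with 7 of 10 A/J arrays below all C3H arrays. The difference was -0.34 ± 0.05 (adjusted p = 1.08e-05 in limma) untreated and -0.19 ± 0.06 (adjusted p = 0.0118) after NNK. NNK-treated levels were 8.55 to 8.91 in A/J (median 8.60) and 8.70 to 9.08 in C3H (median 8.79). The coreceptor genes Cd4 and Cd8a thus differed between the strains in opposite directions.

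Cd3e, a signalling chain of the T cell receptor present in all T cells, did not pass between the strains. Untreated levels were 9.10 to 9.75 in A/J (median 9.41) and 9.25 to 9.71 in C3H (median 9.50), and the ranges overlapped widely. The difference was -0.08 ± 0.08 (interval -0.24 to 0.08, adjusted p = 0.403 in limma) untreated and 0.00 ± 0.09 (adjusted p = 0.971) after NNK. NNK-treated levels were 9.40 to 9.83 in A/J (median 9.50) and 9.28 to 9.97 in C3H (median 9.51). Zap70, the kinase recruited to CD3 chains, had levels of 7.90 to 8.33 in untreated A/J (median 8.10) and 7.96 to 8.34 in untreated C3H (median 8.23), with a difference of -0.07 ± 0.03 (adjusted p = 0.0673). Without the second untreated A/J array of week 6 or of week 9, or the first untreated C3H array of week 0, that difference was -0.08, -0.10 and -0.09. The A/J arrays were the higher of their pairs and the C3H array the lower, so leaving any out widens the difference by construction. After NNK the Zap70 levels were 8.20 to 8.44 in A/J (median 8.30) and 8.19 to 8.36 in C3H (median 8.28). The difference was 0.02 ± 0.04 (adjusted p = 0.68 in limma).

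**Figure D2:**
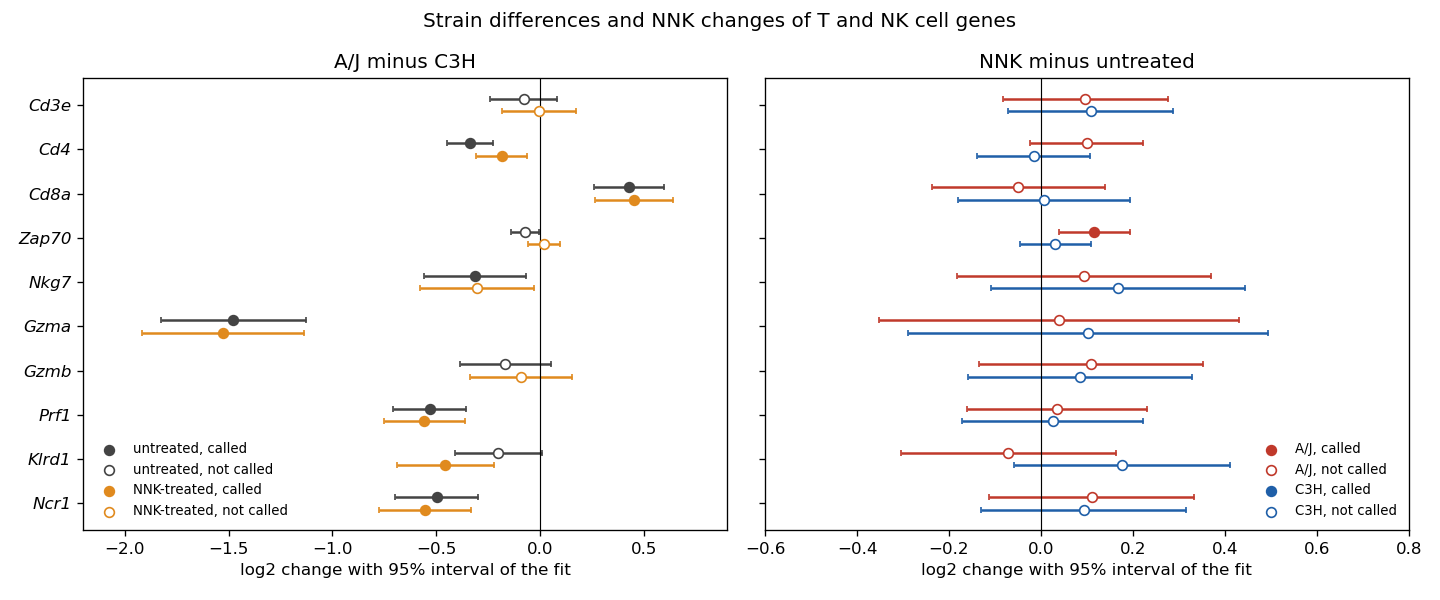
Log2 difference with the 95% interval of the limma fit for each of the 10 genes, with A/J minus C3H on the left (grey untreated, orange NNK-treated) and NNK minus untreated on the right (red A/J, blue C3H). Filled points passed an adjusted p of 0.05. Gzma sits at -1.48 and -1.53 and Cd8a at 0.43 and 0.45 on the left, and on the right Zap70 in A/J, at 0.12, is the filled point.

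Paired A/J arrays of 1 week differed widely in the cytotoxic genes. The widest gap was in the untreated pair of week 9 for Gzma, Nkg7 and Gzmb. For Prf1 and Klrd1 it was in the NNK-treated pair of week 12, and for Ncr1 in the untreated pair of week 0. In the untreated pair of week 9, Gzma was 7.78 in the first array and 9.22 in the second, Nkg7 9.44 and 10.65, and Gzmb 7.69 and 8.78. Prf1 was 8.14 and 8.75 in that pair, Cd8a 8.26 and 9.25, Klrd1 8.95 and 9.25, and Ncr1 7.80 and 8.08. In the NNK-treated pair of week 12, Gzma was 9.00 in the first and 7.87 in the second, Nkg7 10.31 and 9.58, Gzmb 8.61 and 7.87, Prf1 8.72 and 8.01, Klrd1 9.37 and 8.66, and Ncr1 8.45 and 7.84. Cd8a did not share that second pattern, at 8.27 and 8.41. Other A/J pairs also lay apart: in the untreated pair of week 0 Gzma was 8.46 and 7.26 and Ncr1 8.35 and 7.73, and in the NNK-treated pair of week 9 Nkg7 was 10.16 and 9.50, Klrd1 9.33 and 8.73, and Ncr1 8.44 and 7.84. In C3H the widest gap within a pair was 0.59, for Cd3e in the NNK-treated arrays of week 9. Without the second untreated array of week 9 and the first NNK-treated array of week 12, the strain difference called 9 of the 10 genes untreated and 8 after NNK, with Gzma at -1.62 and -1.66, while 55.3% and 52.2% of all genes tested were called in that fit. These 2 arrays were chosen after seeing the data because they were the highest of A/J in Nkg7, Gzma, Gzmb and Prf1. Leaving them out therefore lowers A/J by construction. In Klrd1 the highest A/J array was instead the first untreated array of week 0, at 9.40. In Ncr1 the second untreated array of week 9 was at 8.08, below that same week 0 array at 8.35. The genes then added were Gzmb, Zap70 and Klrd1 untreated, and Nkg7 and Gzmb after NNK.

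**Figure D3:**
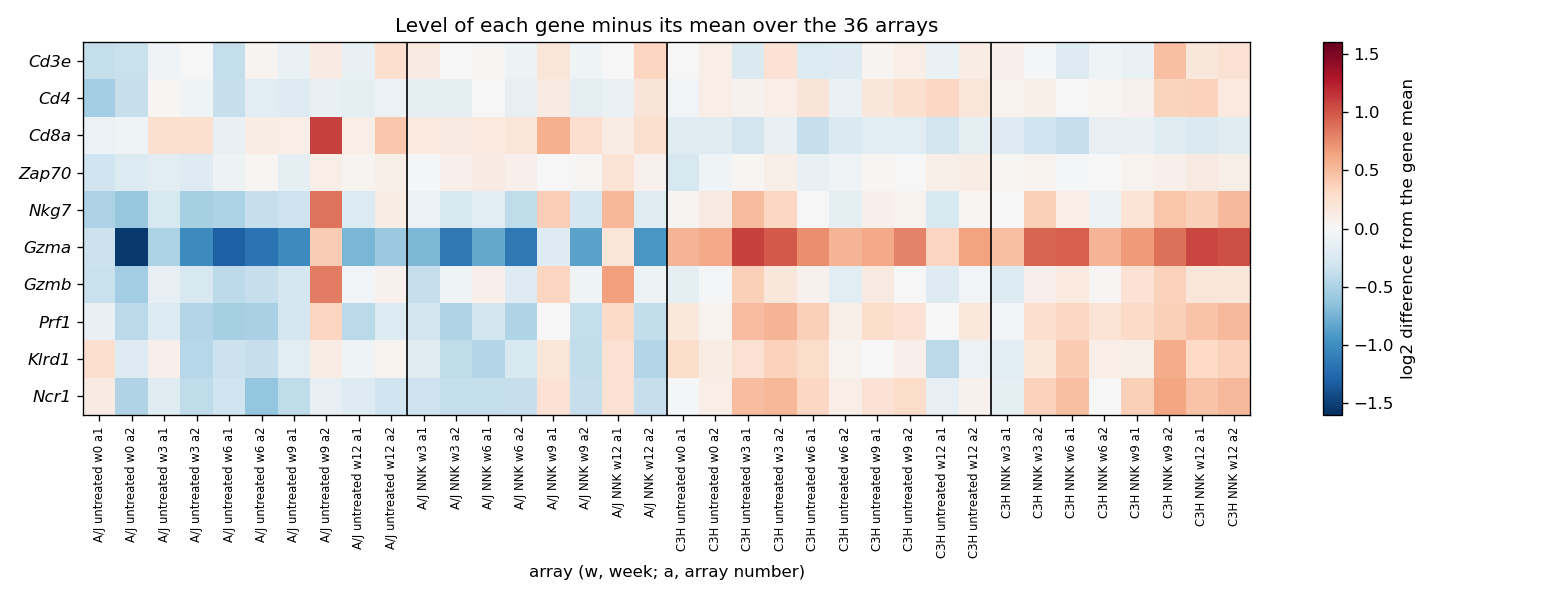
Each gene's level minus its own mean over the 36 arrays, on a log2 colour scale, with arrays in columns by strain, treatment and week and genes in rows. Gzma is below its mean in most A/J columns and above it in all C3H columns, and the second untreated A/J array of week 9 stands out in Cd8a, Nkg7 and Gzmb, at 9.25, 10.65 and 8.78 before centring.

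Other genes of the same pathways were read from lists. Of 12 tested genes of cytotoxic granules and effectors, 7 were lower and 0 higher in untreated A/J than in untreated C3H lungs. They included Gzmk, another granzyme (-0.38 ± 0.04, adjusted p = 8.53e-08 in limma), Ctsw, a protease of cytotoxic cells (-0.39 ± 0.07), and the transcription factors Eomes (-0.45 ± 0.09) and Tbx21 (-0.25 ± 0.08), which drive the cytotoxic programme. The median of that list was -0.15, against -0.04 for all genes tested. After NNK, 8 of the 12 were lower and 3 higher (Rab27a, Unc13d and Prdm1), with a median of -0.20 against -0.02. Of all genes tested, 29.8% were lower and 23.5% higher in that comparison. Of 11 tested genes of the NK list, 4 were lower in untreated A/J, among them Klrb1b (-0.65 ± 0.07) and Il2rb (-0.44 ± 0.07), and 2 were higher, Itga2 (0.40 ± 0.03) and Klre1 (0.13 ± 0.05). Those counts are near the 36.3% and 19.8% of all genes tested that were lower and higher, and the median of the NK list was -0.01.

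T cell lists were mixed. Of 9 tested genes of the receptor complex and its coreceptors, 3 were higher in untreated A/J, namely Cd8b1, the partner chain of Cd8a (0.37 ± 0.08, adjusted p = 0.000294 in limma), Cd6 (0.22 ± 0.05) and Cd28 (0.13 ± 0.05), and Thy1 was lower (-0.27 ± 0.05). Of 8 genes of T cell signalling, 4 were lower and 1 higher, with Ptpn22 at -0.74 ± 0.07 and Lcp2 at -0.66 ± 0.05, both also expressed outside T cells. Of 8 genes of T cell identity and naive cells, 4 were lower, such as Gata3 (-0.74 ± 0.07) and Il7r (-0.52 ± 0.07), and 2 higher, Ccr7 (0.49 ± 0.07) and Bcl11b (0.17 ± 0.05). Of 10 genes of helper, regulatory and activated T cells, 5 were lower and 1 higher. The medians of these 4 lists, in that order, were -0.04, -0.12, 0.00 and -0.14. Over the 6 T and NK cell lists together, with the 10 genes left out, 59.6% of 57 tested genes were called between untreated strains, against 56.1% of all genes tested.

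Markers of other cells moved between the strains as well. Of all genes tested, 19.8% were called higher and 36.3% lower in untreated A/J. The B cell list was called higher in untreated A/J for 5 of its 8 genes and lower for 0. Its mean level was 9.26 to 9.78 per A/J array against 8.65 to 9.64 per C3H array. Glycam1, a gene of lymph node vessels, lay between 7.98 and 8.45 in untreated A/J arrays and between 8.07 and 12.2 in untreated C3H arrays, a difference of -1.50 ± 0.31 (adjusted p = 0.000251 in limma). Ccl19 of the same 3 tested genes was also lower in A/J, at -0.72 ± 0.05. The list of interferon response genes was lower in A/J for 6 of 7 genes, with mean levels of 9.00 to 9.25 per A/J array and 9.42 to 9.84 per C3H array. The part of these cells and responses in the strain differences was not tested. Of 8 thymocyte genes 3 passed the filter, and the list's mean level ran from 7.27 to 7.66 over the 36 arrays. Among those below the filter Rag1 ran from 6.50 to 7.13 and Dntt from 6.37 to 7.15, and Ptcra, which passed it, from 7.51 to 8.06. The highest Rag1 was in the second untreated A/J array of week 9. The highest Dntt and list mean were in the first NNK-treated A/J array of week 9. These are the arrays highest in Cd8a within their sets, but other thymocyte values peaked elsewhere. Ptcra was highest in the first untreated A/J array of week 6, the A/J array lowest in Cd8a. Rag2, also below the filter, was highest in the second NNK-treated A/J array of week 9. Among untreated A/J arrays the list mean was highest in the second array of week 12. The part of thymus cells in the Cd8a levels was not tested. The lung label was met by 8 genes of alveolar type 2 cells, surfactant genes among them, with mean levels of 12.6 to 12.9 in every array.

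The question of NNK was put to each strain as the mean of 4 weekly differences. In A/J lungs 10% of all genes tested were called, 7.44% higher and 2.60% lower, and 1 of the 10 genes was called. Zap70 levels at weeks 3, 6, 9 and 12 averaged 8.03, 8.19, 8.20 and 8.29 untreated and 8.25, 8.32, 8.23 and 8.36 after NNK, higher by 0.12 ± 0.04 (adjusted p = 0.0493 in limma). The call stood at the threshold: it was lost in 29 of 36 fits that left out 1 array, with changes from 0.08 to 0.15 and adjusted p up to 0.13. It was kept without the second untreated A/J arrays of weeks 3, 6 and 9, the first NNK-treated A/J array of week 3, the second of week 12, or either untreated C3H array of week 0, and lost without each of the other 29. The remaining 9 genes had differences of -0.07 to 0.11, with adjusted p from 0.29 to 0.916, and the median of all 10 was 0.10 against 0.02 for all genes tested. For Gzma the change was 0.04 with an interval from -0.35 to 0.43, so changes of up to about that size were within the error of these arrays.

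In C3H lungs NNK called 0.0803% of all genes tested and 0 of the 10 (0 at an unadjusted p under 0.05). Changes ran from -0.02 for Cd4 to 0.18 for Klrd1, 9 of 10 above zero, with a median of 0.09 against -0.005 for all genes tested. The strains' NNK changes were compared directly, where 1.13% of all genes were called, and 0 of the 10 were (0 at an unadjusted p under 0.05), with adjusted p from 0.405 to 0.978 in limma.

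Week by week, 0 of 80 changes (10 genes, 4 weeks, both strains) passed in limma. The share of all genes called was 0.354% at week 3, 7.27% at week 6, 1.54% at week 9 and 0.0736% at week 12 in A/J, and 0.0936%, 0.0134%, 0% and 0% in C3H. In A/J at week 6 all 10 genes were above zero, from 0.01 to 0.33, with a median of 0.14 against 0.03 for all genes tested. At week 9 in A/J 4 of 10 were above zero, the untreated pair of that week holding the array that stood apart. In C3H 9 of 10 genes were below zero at week 3, with a median of -0.27 against -0.03 for all genes tested. At week 12 in C3H 9 of 10 were above zero, with a median of 0.36 against 0.007. Klrd1 had the largest of these week 12 changes, with untreated arrays at 8.70 and 9.04 and NNK-treated arrays at 9.45 and 9.50. That change was 0.61 ± 0.23, with an unadjusted p of 0.0135 and an adjusted p of 1. At week 3 Prf1 was 8.90 and 8.96 untreated and 8.36 and 8.67 after NNK, a change of -0.41 ± 0.19 (adjusted p = 0.331). In both cases the pairs did not overlap, but the change was not past the threshold. At an unadjusted p under 0.05, 1 gene was counted at week 3 in each strain and 4 genes at week 12 in C3H. The untreated A/J arrays of week 6 also held cornified skin genes, with a list mean of up to 11.8 against a median of 8.11 over untreated A/J arrays, and skin genes were called lower after NNK at that week for 6 of 7 tested genes (list median -3.57). Of the other lists at week 6 in A/J, 6 of 9 neutrophil genes rose (median 1.36), 7 of 8 proliferation genes rose (median 1.0), 3 of 7 interferon response genes rose (median 0.37), and all 8 B cell genes were below zero (median -0.53), 0 of them past the threshold. The part of these cells and responses in the week 6 changes was not tested. Among the other T and NK cell genes of the lists, 2 of 57 tested (3.51%) were called for NNK in A/J, against 10% of all genes tested. Il2ra, the alpha chain of the interleukin-2 receptor, rose with NNK in A/J (0.29 ± 0.07, adjusted p = 0.0174) and Itga2 fell (-0.19 ± 0.04, adjusted p = 0.00129).

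Over weeks 0 to 12 in untreated A/J lungs, 22.8% of all genes tested had a linear trend, 17.5% rising and 5.27% falling, and 2 of the 10 genes were called. On the deposited scale without quantile normalization the share of called genes that rose was 40.6% instead of 76.9%, so directions here depend on the scaling. Zap70 was 7.90 and 8.0 at week 0, 8.04 and 8.01 at week 3, 8.14 and 8.25 at week 6, 8.07 and 8.33 at week 9, and 8.26 and 8.32 at week 12. Both arrays of week 12 lay above both arrays of weeks 0, 3 and 6, and the rise over 12 weeks was 0.34 ± 0.07 (adjusted p = 0.00147 in limma). It kept its call in 36 of 36 fits that left out 1 array, and on the deposited scale it was 0.20 and did not pass. Nkg7 was 9.28 and 9.16 at week 0, 9.52 and 9.24 at week 3, 9.27 and 9.41 at week 6, 9.44 and 10.65 at week 9, and 9.56 and 9.90 at week 12. Its rise was 0.67 ± 0.24 (adjusted p = 0.0449), and it was lost in 24 of 36 fits that left out 1 array, with rises from 0.43, without the second array of week 9, to 0.91, without the first. It was kept without the first untreated A/J array of week 3 or of week 9, without any 1 NNK-treated A/J array of weeks 6, 9 and 12, without either untreated C3H array of week 12, or without either NNK-treated C3H array of week 3, and lost without each of the other 24.

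Cd8a (0.42 ± 0.16, adjusted p = 0.0642 in limma), Gzmb (0.57 ± 0.21, adjusted p = 0.0547) and Cd3e (0.37 ± 0.15, adjusted p = 0.0844) had trends in untreated A/J that did not pass. With 1 array left out these trends moved. Without the first array of week 9, Cd8a was at 0.62 and Gzmb at 0.79. The second array, far above the others in both genes, was then the only one of that group. Leaving out that second array instead lowers the week 9 level, and so both trends, by construction. Without the first array of week 12, Cd8a was at 0.55 and Cd3e at 0.52. Gzmb stayed at 0.57 without either NNK-treated A/J array of week 12. Cd4 and Gzma had trends of 0.21 ± 0.11 and 0.41 ± 0.34, and Prf1, Klrd1 and Ncr1 of 0.11, 0.03 and -0.06, none of them past the threshold. In the 6 T and NK cell lists together 9 of 57 tested genes (15.8%) rose and 0 fell, against 17.5% of all genes tested that rose. These held 3 of 9 genes of the receptor complex (Cd8b1 by 0.49 ± 0.15, Cd6 by 0.42 ± 0.09 and Cd2 by 0.26 ± 0.09), 2 of 12 cytotoxic genes, Gzmm (0.34 ± 0.08) and Tbx21 (0.47 ± 0.17), and 2 of 10 genes of helper, regulatory and activated T cells, among them Cxcr3, a chemokine receptor (0.67 ± 0.14).

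In untreated C3H lungs 0.863% of all genes had a trend and 0 of the 10 genes did (3 at an unadjusted p under 0.05: Cd4, Zap70 and Klrd1). Zap70 had a trend of 0.20 ± 0.07 (adjusted p = 0.184 in limma), Cd4 by 0.24 ± 0.11 (adjusted p = 0.359) and Klrd1 by -0.48 ± 0.20 (adjusted p = 0.326). The difference between the strains' trends was called for 1.32% of all genes and for 0 of the 10 (2 at an unadjusted p under 0.05), the widest being Nkg7 at 0.97 ± 0.34 (adjusted p = 0.14). Without the first untreated A/J array of week 9, that difference was 1.21 for Nkg7, 0.90 for Gzmb and 0.62 for Cd8a. The second array, which stood apart in these genes, was then the only one of its group. Leaving out that second array instead lowers these differences by construction. Among NNK-treated arrays, 3.24% of all genes had a trend over weeks 3 to 12 in A/J and 0.401% in C3H. None of the 10 genes passed in either strain in limma (1 in A/J, Gzmb, and 0 in C3H at an unadjusted p under 0.05). All 10 were above zero in both, with medians of 0.30 in A/J and 0.31 in C3H, against 0.008 and 0.015 for all genes tested. Of the 14953 genes tested, 7909 were above zero in A/J and 8304 in C3H. The cytotoxic genes varied together, so the signs of the 10 genes are not separate results.

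How the 10 genes varied with each other was described within each strain, over 18 arrays that share weeks and treatments, because the strains form separate clusters. All 90 pairs and strains were computed, each p by a two-sided permutation test with 100000 resamples and adjusted over the 90. The 15 pairs among the 6 cytotoxic genes had Pearson correlations of 0.474 to 0.94 in A/J and 0.685 to 0.903 in C3H, and 14 and 15 of them passed an adjusted p of 0.05. By Spearman's rho, 0.238 to 0.897 in A/J and 0.672 to 0.899 in C3H, 12 and 15 passed. Without the 2 arrays farthest from the median of 1 gene of the pair, r went down to 0.684 in C3H and to 0.199 in A/J, the latter for Gzmb and Klrd1, the pair that had not passed (r = 0.474). For Nkg7 and Klrd1 in A/J r went from 0.552 to 0.369, and for Gzmb and Prf1 from 0.833 to 0.489, so these rested in part on 2 arrays. Gzma and Prf1 had r = 0.939 and Spearman's rho = 0.897 in A/J (p = 1e-05, adjusted p = 0.000112, for rho p = 1e-05), and r = 0.862 without the 2 arrays farthest from the median of Gzma. In C3H they had r = 0.875 and rho = 0.878 (p = 1e-05, adjusted p = 0.000112, for rho p = 2e-05), and r = 0.847 without 2 arrays. A p of 1e-05 is the smallest that these permutations can give.

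In C3H, 0 of 24 pairs of a T cell gene (Cd3e, Cd4, Cd8a or Zap70) and a cytotoxic gene passed, with r from -0.219 to 0.472. In A/J 7 of 24 passed, with r from -0.14 to 0.788. Cd8a levels spanned only 7.78 to 8.04 in C3H, against 8.03 to 9.25 in A/J. Its 6 correlations with the cytotoxic genes ran from -0.219 to 0.024 in C3H, 0 of 6 past the threshold. They ran from 0.216 to 0.788 in A/J, 4 of 6 past it (2 of 6 by rho). The highest was Cd8a with Nkg7 in A/J, at r = 0.788 and rho = 0.548 (permutation p = 0.00035, adjusted p = 0.00126, for rho p = 0.0208), and r fell to 0.427 without the 2 arrays farthest from the median of Cd8a. Over the 6 pairs in A/J r without 2 arrays was -0.202 to 0.427, so these relations rested in large part on those arrays. The difference between the strains' correlations was not tested. Cd3e and Cd4 had r = 0.83 and rho = 0.684 in A/J (permutation p = 5e-05, adjusted p = 0.000321, for rho p = 0.00207), and r = 0.727 without 2 arrays.

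**Figure D4:**
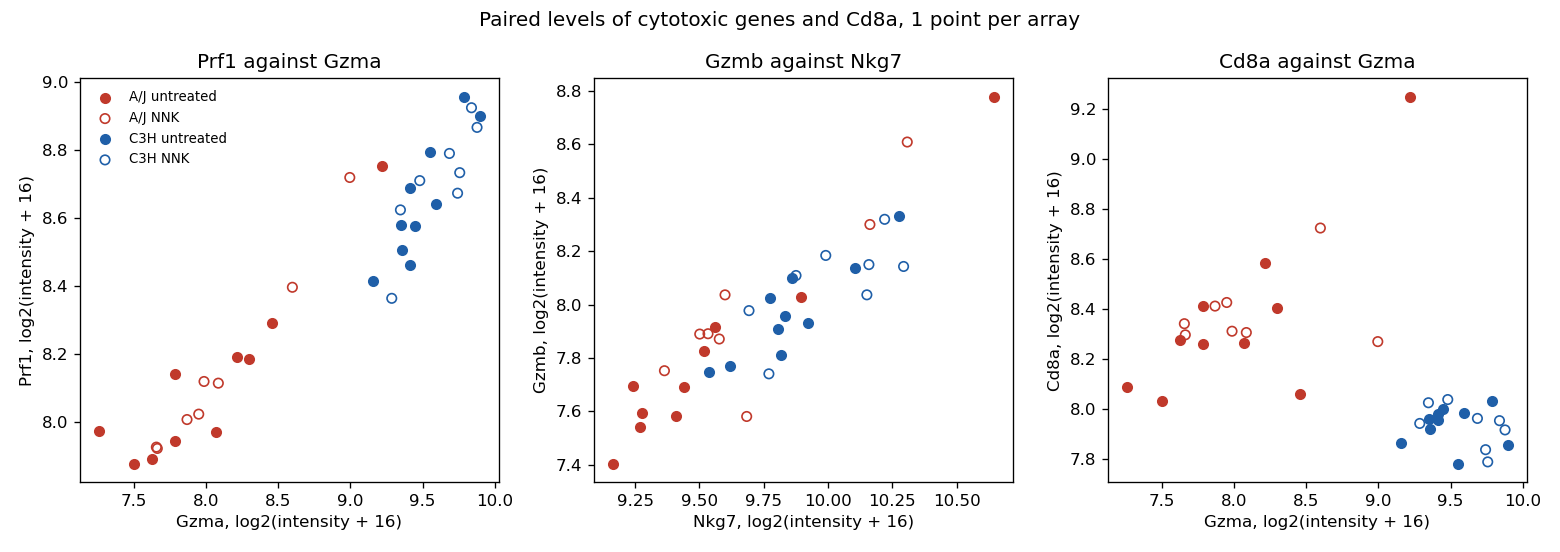
Levels of 2 genes against each other, 1 point per array, on the log2(intensity + 16) scale, with red for A/J, blue for C3H, filled for untreated and open for NNK-treated. Prf1 follows Gzma in both strains (r of 0.939 in A/J and 0.875 in C3H), Gzmb follows Nkg7 with the strains overlapping, and in the panel of Cd8a against Gzma the strains form separate clouds.

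The genes most like each of the 10 over all 36 arrays were named by Pearson's r, a measure that holds the strain difference and is given as a description. Nearest to Gzma was Prf1 (0.955), then Il12rb2, a receptor chain for interleukin-12 (0.927), which within strains fell to 0.72 in A/J and 0.51 in C3H. Nearest to Cd8a was Cd8b1 (0.873 over all arrays, 0.909 in A/J and 0.48 in C3H), followed by Hscb and Tmem167b, whose likeness to Cd8a turned negative in C3H, at -0.255 and -0.132. Nearest to Nkg7 were Gzmb (0.899), the chemokine gene Ccl5 (0.873) and Tbx21 (0.867), with values within strains of 0.626 to 0.94. Nearest to Klrd1 was Ncr1 (0.86, with 0.827 in A/J and 0.799 in C3H), and nearest to Ncr1 was Prf1 (0.913). Nearest to Cd4 were Bin2 (0.851), Il7r (0.832) and Thy1 (0.83), the last with 0.857 in A/J and 0.423 in C3H. Over the 18 C3H arrays alone the 5 genes most like Cd4 were B cell genes, Pax5 (0.92), Blk (0.874), Bank1 (0.863), Cd22 (0.861) and Fcrla (0.86), whose values in A/J were -0.0322 to 0.234. The part of B cells in the Cd4 levels was not tested. The nearest genes were, for Cd3e, Tmem131l (0.731) and Itgb7 (0.693), and for Zap70 Ly6k (0.82) and Gsdme (0.792).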

How the data were processed

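The authors deposited linear intensity values, 1 per probe set and array, made with Affymetrix Expression Console and PLIER (per the submitters' processing notes); versions and settings are not given in the sources used here. Array medians of deposited intensity ran from 285.4 to 347, and 2 arrays a group limit the precision. Quantile normalization followed on log2(intensity + 16), which understates changes of dim genes. Of 35556 probe sets, 21789 had 1 gene symbol; 1 probe set, the brightest on average, stood for each of 19938 genes, and the dimmest genes, under the 25th percentile, were left out. All comparisons come from 1 limma fit (limma 3.58.1, R 4.3.3) of 18 group means, which leaves 18 residual degrees of freedom, with Benjamini-Hochberg adjustment over 14953 genes at 0.05; "called" means passing it. Changes carry the SE of the fit and 95% intervals. Permutation tests used numpy 2.4.6. The script was tested on simulated arrays. Alternatives were the deposited scale, a pseudocount of 1, other filters and variance models, means over probe sets, each strain's own arrays, a block by array number, and leaving out arrays.

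The 10 genes and the lists were chosen with earlier results of these data known. The named genes beyond the 10 are up to 4 of each list by the smallest p, and the 3 most alike by Pearson's r. Fewer are printed where values add little. Some further list genes were named after their values were seen (Tbx21 and Klre1 between strains, Bcl11b, Unc13d, Prdm1, Rag1, Rag2, Dntt, Ptcra, and the B cell genes most like Cd4 in C3H).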

Additional observations from a re-analysis of the deposited data

Results flagged for a closer look

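Of 40 sets of arrays (10 genes, both strains, both treatments), 5 held 1 array far from the others, where chance alone gives about 1 in 20 such sets, and the sets share arrays. In untreated A/J lungs the second array of week 9 was far above the other 9 arrays in 4 genes. Cd8a was 9.25 in it against 8.58 in the next array, Nkg7 10.65 against 9.90, Gzmb 8.78 against 8.03, and Prf1 8.75 against 8.29. In NNK-treated A/J lungs the first array of week 9 was at 8.73 in Cd8a, against 8.43 in the next of the other 7. No C3H set was singled out.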

How the results depend on the processing

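No direction of a called value reversed under any alternative run. For single genes, 1084 of the values under other settings stayed on the same side of the threshold, 16 lost the call and 10 gained it; with 1 array left out these were 3519, 61 and 20. The 1 gene called for NNK in A/J became 0 on the deposited scale, with no filter, with a filter at the 50th percentile (where 5 of the 10 genes are tested), with trended robust variances, array weights, 1 variance per strain, each strain's own arrays, or without week 6 plus the untreated A/J array of week 0 with skin genes; with 1 array left out it was 0 to 1. Weekly calls were 0 to 2 with 1 array left out, 2 without the first untreated A/J array of week 9. The 6 genes called between strains became 3 in both treatments with the 50th percentile filter, since fewer genes were tested. The 2 trends in untreated A/J became 0 on the deposited scale. They became 1 with the 50th percentile filter, trended robust variances, array weights, 1 variance per strain or own arrays. The count was also 1 without week 6 and the week 0 array, or without the 2 A/J arrays highest in Nkg7, Gzma, Gzmb and Prf1. It was 1 to 4 with 1 array left out. Array weights called 1 gene, Zap70, for the untreated C3H trend, and the difference of trends called 0 to 3 with 1 array left out. Except where stated, the cause was not tested.

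Settings without quantile normalization also moved the split of all calls: the share rising was 83.2% and 61.4% for the difference of trends, 36.4% and 28% for the untreated C3H trend, and 38.3% and 25% for the NNK-treated C3H trend, with normalization and without. Array numbers showed no steady pairing of the samples. Over 8 pairs of NNK-treated and untreated groups the correlation of array differences was -0.201 to 0.222, and 2 of 8 exceeded 0.1. The median over all pairs of groups was 0.017. No range expected without pairing was computed, so a weak pairing was not tested. A block by replicate number moved the count of untreated A/J trends from 2 to 3 by adding Cd3e (0.37, adjusted p = 0.0498 in limma) and changed no other call. With 2 arrays a group, changes of the size of the printed intervals cannot be told from zero.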
